A study of Homo sapiens with 47 samples.

Results

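The genes described here encode 37 Polycomb, trithorax and related chromatin regulators, taken by name from the 58051 genes listed for each of 47 bulk RNA-seq libraries. All 37 symbols matched 1 Ensembl identifier each, and all had more than 3 counts in all 47 libraries. The libraries came from WA09 (H9), an established human embryonic stem cell (hESC) line, before treatment (t0), after 36 h, and at passages P1 to P10. Each time point was sampled in 3 differentiations (r1 to r3), except P9 with r1 and r2, which gave 35 whole-culture libraries. Another 12 libraries were fractions of P5 and P8 with 3 differentiations each: a mesenchymal fraction (MES) that detached first in TrypLE and holds neural crest, and the epithelial remainder (EPI) of pre-neural progenitors. Cells at t0 were untreated hESCs. All later libraries shared N2B27 medium without vitamin A, the WNT agonist CHIR-99021, FGF2, the retinoic acid receptor inverse agonist AGN193109 and the ROCK inhibitor Y-27632. According to the paper, the first passages needed a higher dose of Y-27632 than other time points. The cells at 36 h are neuromesodermal progenitor (NMP)-like, and the passaged cultures are labelled as pre-neural progenitors and neural crest. All libraries derive from 1 cell line, so the spread between differentiations holds no variation between donors.

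Polycomb proteins keep developmental genes silent. Polycomb repressive complex 2 (PRC2) methylates lysine 27 of histone H3 (H3K27), and PRC1 ubiquitinates histone H2A and compacts chromatin. Canonical PRC1 reads the H3K27 mark through a chromobox (CBX) subunit, variant PRC1 carries RYBP or YAF2 in its place, the PR-DUB complex removes the ubiquitin, KDM6 enzymes remove the methyl marks, and trithorax proteins of the KMT2 family mark active genes. The *HOX* clusters, whose genes pattern the body axis, are the classical targets. The cultures were made to extend the life of posterior spinal cord progenitors.

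Depth ran from 13029491 to 64082859 expected counts per library, with a median of 47292229. Of 39 *HOX* genes, those whose group mean reached 100 normalized counts numbered 0 at t0, 12 at 36 h, 24 at P1, 31 at P3 and 39 at P5. The 4 hESC markers *POU5F1*, *NANOG*, *DPPA4* and *TDGF1* summed to between 2992 and 3361 TPM at t0 (transcript abundance scaled to a fixed total per library), to between 836 and 2352 at 36 h and to between 3.58 and 10.1 at P8. The 5 NMP markers summed to between 14.6 and 17.0 TPM at t0 and to between 309 and 1249 at 36 h. The P10 library of r1 stood apart from those of r2 and r3, at root-mean-square log2 distances of 1.298 and 1.26 against 0.75 between r2 and r3. The r1 libraries of P1 (1.15 and 1.31 against 0.54), P2 (0.93 and 1.09 against 0.49) and P3 (0.83 and 0.88 against 0.44) did so as well. The members called over all time points are also given without the r1 libraries of P1 to P3. Those called for the late passages are given without these and, separately, without the P10 library of r1. Levels, midpoints and *HOX* counts include all of them. The 3 paraxial mesoderm markers summed to between 1.99 and 2.83 TPM at t0, 6.61 and 629 at 36 h, 6.45 and 359 at P1, 10.4 and 205 at P3, and 2.21 and 3.38 at P5, so their sum moved with the steps compared below. The 6 neural crest markers summed to between 30.5 and 35.7 TPM at t0, 29.9 and 79.9 at 36 h, 172 and 427 at P5, and 139 and 766 at P8, with no overlap between the first pair of these groups and the last. The 4 neuron markers summed to between 140 and 176 TPM at t0 and between 201 and 216 at 36 h, without overlap. The part of these lists in the results was not tested. Of the muscle markers *MYOG* was at or under 3 counts in all 47 libraries and *DES* reached 18.6 TPM, and of the endoderm markers *SOX17* was at or under 3 counts in all 47 and *FOXA2* reached 7.45 TPM, at 36 h. Numbers r1 to r3 mark separate differentiations. The p-values rest on the spread left between libraries once shared differences between differentiations are removed, pooled over all groups of a fit.

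Levels are given below as deposited TPM. Fold changes are log2 values with SE from edgeR's quasi-likelihood test on counts with the differentiation as a block, and a gene was called at a Benjamini-Hochberg adjusted p under 0.01. Over all time points, 27 of the 37 genes were called as changing (73.0%), against 55.8% of all 21750 genes tested. Without r2 this was 15 (all genes 16.6%), without r3 17 (23.1%), and without the r1 libraries of P1 to P3 28 (62%). Between t0 and P8, 24 of the 37 were called (64.9%, 16 higher and 8 lower), against 37.1% of all genes (18.6% higher and 18.6% lower). Between t0 and 36 h, 8 were called (21.6%, 4 higher and 4 lower), against 5.68% (3.06% higher and 2.62% lower). Between 36 h and P5, 14 were called (37.8%, 9 higher and 5 lower), against 20.2% (9.63% higher and 10.6% lower). The comparisons share the t0 or the 36 h libraries, so their counts are not independent of each other. Under the study's stricter thresholds, which add a change of at least 2-fold and a mean of at least 100 counts, 14 members passed between t0 and P8, against 15.2% of all genes, and 7 between 36 h and P5, against 8.26%. The median log2 fold change between t0 and P8 was 0.32 over the 37 genes and 0.02 over all genes. The 10 genes not called at any time were *EZH1*, *EED*, *RBBP4*, *PHF1*, *CBX2*, *PCGF2*, *RNF2*, *PCGF6*, *KMT2B* and *CTCF*.

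**Figure D1:**
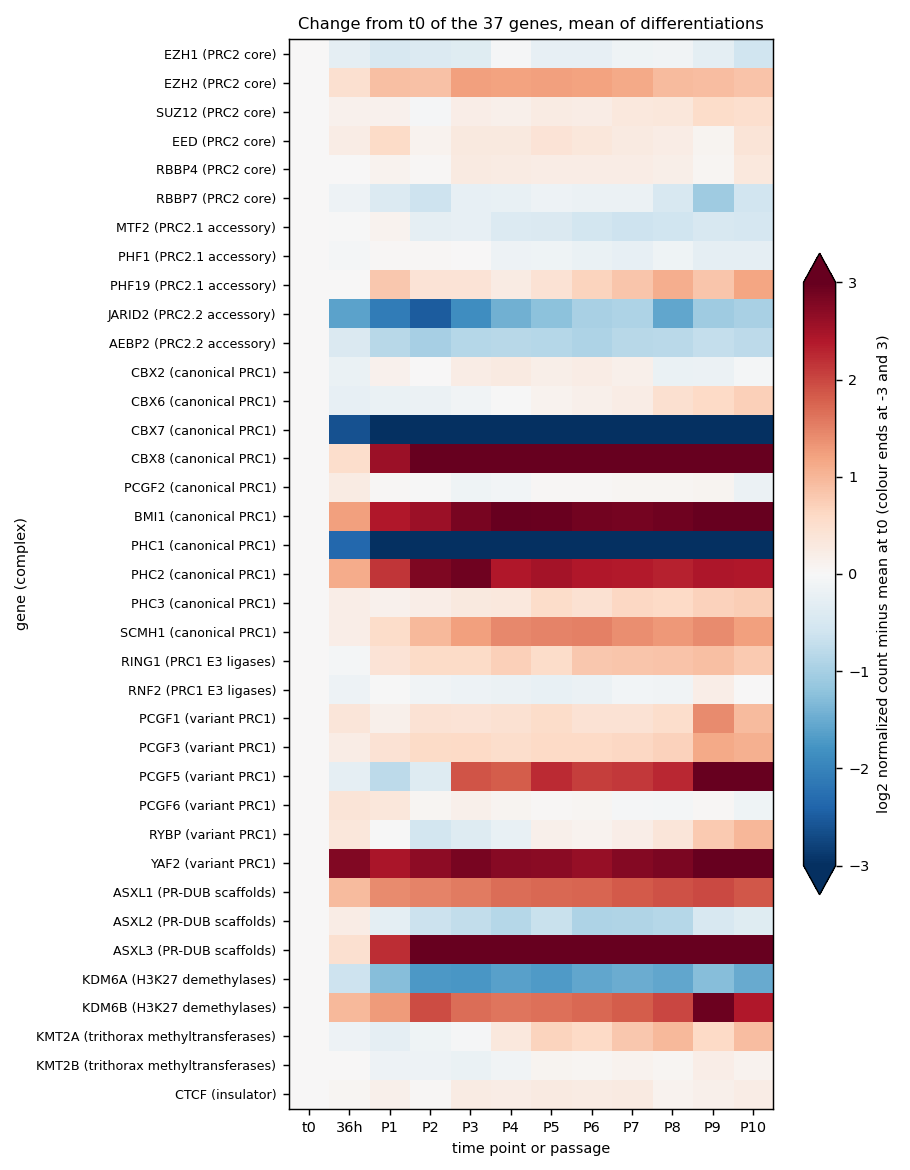
Rows are the 37 genes with their complex, columns the 12 whole-culture time points, and colour the log2 normalized count minus the mean at t0, averaged over differentiations, with the colour scale ending at -3 and 3. *CBX7* and *PHC1* turned dark blue by P1, *YAF2* was red from 36 h, and *ASXL3*, *CBX8* and *PCGF5* reddened later, while *RNF2*, *PCGF2* and *CTCF* stayed pale.

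RefSeq windows from 250 bases before to 50 after RefSeq's own gene start (GRCh38.p14), which can differ from the GENCODE starts given for the genes below, were found for 35 of the 37 genes, and they held a median of 36 CpG dinucleotides, against 14 over all 35116 windows. The windows of *PHC1* and *CBX7*, which fell most from t0 to 36 h, and of *YAF2*, which rose most, are printed 5′ to 3′ with 3 motifs in capitals, searched on both strands: TATAAA (the TATA box), CTTTGA (the core of TCF/LEF sites) and GGGCGG (the GC box). The *PHC1* window (chr12:8913593-8913892, + strand) held 10 CpG, 1 TATAAA, 1 CTTTGA and no GGGCGG. The *CBX7* window (chr22:39152631-39152930, - strand) held 50 CpG and 9 GGGCGG. The *YAF2* window (chr12:42238199-42238498, - strand) held 44 CpG and 4 GGGCGG. Neither of these held TATAAA or CTTTGA.
PHC1: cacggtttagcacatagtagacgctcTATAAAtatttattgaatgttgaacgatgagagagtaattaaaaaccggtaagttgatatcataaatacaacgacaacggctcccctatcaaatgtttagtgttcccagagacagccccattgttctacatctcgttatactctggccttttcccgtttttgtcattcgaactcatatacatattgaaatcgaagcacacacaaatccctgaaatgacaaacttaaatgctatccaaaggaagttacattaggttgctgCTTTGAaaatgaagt
CBX7: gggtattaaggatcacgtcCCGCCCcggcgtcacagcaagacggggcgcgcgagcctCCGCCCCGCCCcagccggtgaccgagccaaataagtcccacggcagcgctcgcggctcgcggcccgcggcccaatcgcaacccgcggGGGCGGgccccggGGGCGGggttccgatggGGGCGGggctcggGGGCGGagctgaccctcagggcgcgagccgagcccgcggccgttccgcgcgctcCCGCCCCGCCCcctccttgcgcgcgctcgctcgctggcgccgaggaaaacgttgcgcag
YAF2: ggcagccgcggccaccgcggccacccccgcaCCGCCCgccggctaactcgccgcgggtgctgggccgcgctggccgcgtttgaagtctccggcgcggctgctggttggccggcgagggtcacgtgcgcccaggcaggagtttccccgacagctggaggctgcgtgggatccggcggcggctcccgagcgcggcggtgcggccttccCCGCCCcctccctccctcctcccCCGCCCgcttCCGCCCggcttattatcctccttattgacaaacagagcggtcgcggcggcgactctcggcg
TATAAA occurred in 3 of the 35 windows and 11.5% of all, CTTTGA in 2 and 12.9%, and GGGCGG in 27 and 45.0%. The full set of windows was not chosen by gene type or expression, while the members are protein-coding and had counts in every library. The CpG and motif values therefore do not set the members apart from other expressed genes. These are matches of letters, and binding at them was not measured here.

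Among canonical PRC1 genes, the polyhomeotic genes *PHC1* and *PHC2* changed order in transcript abundance. *PHC1* (chromosome 12, 8913896 to 8941467, + strand), a polymerizing subunit, stood at 719.97, 751 and 772 TPM in the t0 libraries of r1 to r3. At 36 h it stood at 193, 157 and 87.3, and at P8 at 70.1, 73.5 and 80.7. Each 36 h library lay below each t0 library, and each P8 library below each 36 h library. *PHC1* fell by 2.31 ± 0.19 on the log2 scale by 36 h (SE, n = 3, edgeR adjusted p = 2.5e-08), and by 3.38 ± 0.20 between t0 and P8 (edgeR adjusted p = 1.5e-11). Between 36 h and P5 it fell by a further 0.98 ± 0.19 (edgeR adjusted p = 3.1e-04).

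*PHC2*, the paralogue, moved the other way. It read 20.4, 18.0 and 22.1 TPM at t0, 28.4, 30.5 and 101 at 36 h, and 106, 95.6 and 116 at P8. The 36 h value of r3 was over 3 times those of r1 and r2, so the early difference varied between differentiations. *PHC2* rose by 1.36 ± 0.30 on the log2 scale by 36 h (SE, n = 3, edgeR adjusted p = 0.0042), by 1.13 ± 0.30 from 36 h to P5 (edgeR adjusted p = 0.0055), and by 2.29 ± 0.31 between t0 and P8 (edgeR adjusted p = 2.2e-06). *PHC1* held 96.0% ± 0.36 (SD, n = 3) of the summed TPM of *PHC1*, *PHC2* and *PHC3* at t0 and 37.7% ± 2.2 (SD, n = 3) at P8. That sum fell from 779 TPM at t0 to 198 at P8. *PHC3* rose from a mean of 10.7 TPM at t0 to 17.7 at P8, by 0.58 ± 0.13 on the log2 scale (edgeR adjusted p = 8.8e-04). The *PHC2* calls were lost without r2 in both early steps (adjusted p up to 0.22), and the t0 to P8 call held in all 11 alternatives.

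Of the 4 chromobox subunits, which bind methylated H3K27, *CBX7* and *CBX8* were called between t0 and P8. *CBX7* (chromosome 22, 39120167 to 39152674, - strand), the chromobox protein associated with pluripotent cells, was at 3.23, 4.04 and 3.74 TPM at t0. At 36 h it was at 2.12, 0.27 and 0.36, with r1 well above r2 and r3, and at P8 at 0.21, 0.17 and 0.23. *CBX7* fell by 2.35 ± 0.51 on the log2 scale by 36 h (SE, n = 3, edgeR adjusted p = 0.0037), by 2.12 ± 0.53 from 36 h to P5 (edgeR adjusted p = 0.0038, a call lost in 5 of 11 alternatives, with a fall by 1.08 and adjusted p = 0.19 without r1) and by 4.19 ± 0.56 between t0 and P8 (edgeR adjusted p = 1.8e-06). *CBX8* (chromosome 17, 79792132 to 79801683, - strand), another of these subunits, stood at 0.67, 1.41 and 1.33 TPM at t0 and at 2.32, 0.67 and 1.54 at 36 h, where the groups overlapped. It then read 4.43, 5.76 and 5.48 at P1 and 8.91, 7.37 and 9.93 at P5. *CBX8* rose by 2.88 ± 0.31 between 36 h and P5 (edgeR adjusted p = 3.8e-07) and by 3.39 ± 0.31 between t0 and P8 (edgeR adjusted p = 1.0e-08).

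*CBX2*, whose gene ends 4148 bases from the end of *CBX8* on the opposite strand, was the most abundant chromobox gene of the 4 at every time point. Its t0 libraries read 57.7, 53.1 and 57.6 TPM and its P8 libraries 62.5, 37.01 and 64.5. It was not called at any time (edgeR adjusted p = 0.036), and its log2 difference between P8 and t0 was -0.19 with a 95% interval from -0.50 to 0.11. *CBX6* was called over the time course (edgeR adjusted p = 0.0017), with means from 13.0 TPM at 36 h to 25.3 at P10. Of the summed chromobox TPM, *CBX7* held 4.86% ± 0.75 (SD, n = 3) at t0 and 0.24% ± 0.01 at P8, and *CBX8* 1.51% ± 0.57 and 11.02% ± 2.1.

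The log2 ratio of *CBX2* to *CBX7* TPM rose from 3.94 at t0 to 8.04 at P8 and that of *CBX2* to *CBX8* fell from 5.70 to 2.51, with no overlap between the groups in either. The ratio of *PHC1* to *PHC2* went from 5.22 to -0.50, so *PHC2* was the more abundant of the pair by P8. In each of these 3 ratios the difference was over 5 times the pooled SD. Lack of overlap between t0 and P8 was general, since of the 16 gene pairs compared only *MTF2* to *PHF1* overlapped.

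**Figure D2:**
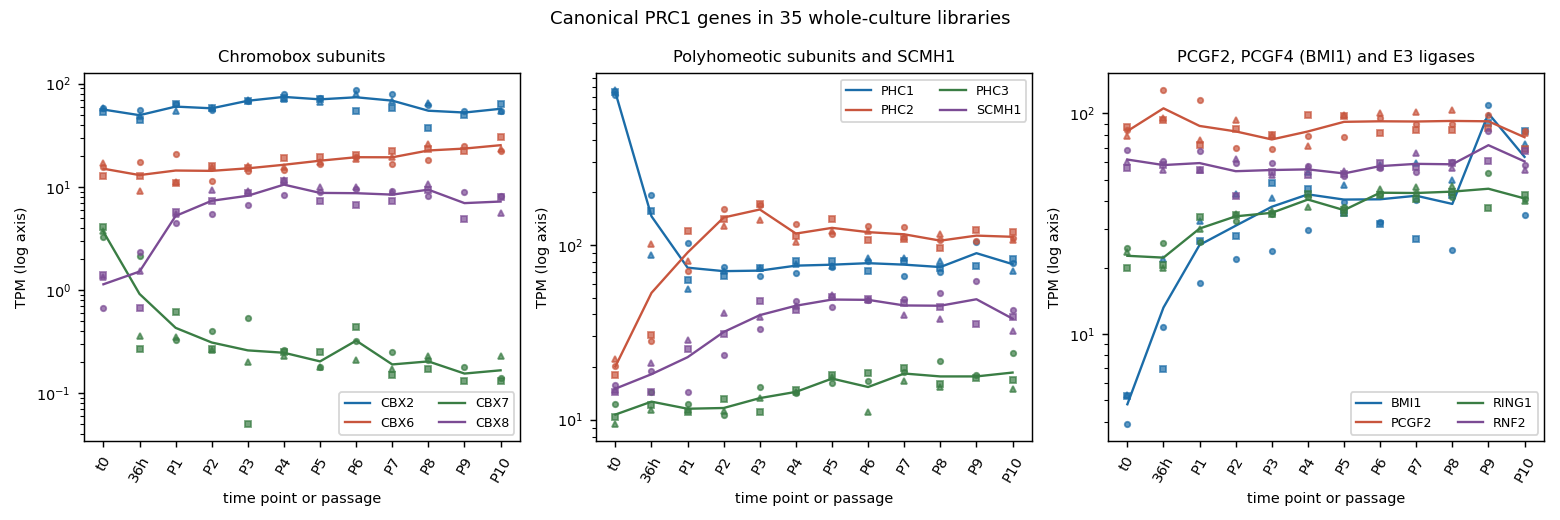
TPM on a log axis against time point for 12 genes of canonical PRC1 and the E3 ligases, with circles for r1, squares for r2, triangles for r3 and lines through the means. *PHC1* and *PHC2* crossed at P1, *CBX7* and *CBX8* crossed between t0 and P1, and *BMI1* climbed from 4.79 TPM at t0 to 99.98 at P9 while *PCGF2*, *RNF2* and *CBX2* stayed near level.

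*BMI1* (PCGF4; chromosome 10, 22321211 to 22331484, + strand), a RING-finger partner of the E3 ligases known for self-renewal of stem cells, stood at 3.89, 5.23 and 5.26 TPM at t0. It stood at 10.7, 6.93 and 21.8 at 36 h, at 39.5, 35.2 and 47.3 at P5, and at 24.1, 42.4 and 50.1 at P8. *BMI1* rose by 1.296 ± 0.27 on the log2 scale by 36 h (SE, n = 3, edgeR adjusted p = 0.0022), by 1.67 ± 0.27 from 36 h to P5 (edgeR adjusted p = 4.6e-05), and by 2.90 ± 0.28 between t0 and P8 (edgeR adjusted p = 1.9e-08). *PCGF2*, which fills the same position in canonical PRC1, stayed between 68.8 and 128 TPM in all whole-culture libraries and was not called at any time (edgeR adjusted p = 0.12). *BMI1* held 3.05% ± 0.54 (SD, n = 3) of the summed TPM of the 6 PCGF genes at t0 and 15.8% ± 4.2 at P8, and *PCGF2* 52.7% ± 2.0 and 38.1% ± 2.8. *SCMH1*, a Sex comb on midleg homologue, went from 15.9, 14.4 and 14.8 TPM at t0 to 43.9, 50.5 and 51.7 at P5, and rose by 1.27 ± 0.22 between 36 h and P5 (edgeR adjusted p = 9.3e-05) and by 1.296 ± 0.22 between t0 and P8 (edgeR adjusted p = 3.2e-05).

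Of the E3 ligases shared by all forms of PRC1, *RING1* was called and *RNF2* was not. *RING1* read 24.4, 19.9 and 23.5 TPM at t0 and 41.6, 44.1 and 46.9 at P8, a rise of 0.85 ± 0.12 on the log2 scale (SE, n = 3, edgeR adjusted p = 2.7e-06). *RNF2* read 68.5, 56.7 and 60.1 TPM at t0 and 60.4, 59.6 and 56.4 at P8 (edgeR adjusted p = 0.11 over all time points). *RNF2* remained the more abundant in every group, with *RING1* at 26.8% ± 1.2 (SD, n = 3) of their sum at t0 and 42.9% ± 2.3 at P8. The difference between these genes in their change was not tested.

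In variant PRC1, the 1 member called between t0 and 36 h was *YAF2* (chromosome 12, 42157104 to 42238349, - strand), which with its paralogue *RYBP* stimulates the E3 ligase. *YAF2* stood at 3.51, 3.33 and 4.17 TPM at t0 and at 19.4, 19.6 and 17.8 at 36 h. From P1 to P8 it ranged between 14.4 and 25.1 TPM, a range that held the 36 h values. *YAF2* rose by 2.74 ± 0.20 on the log2 scale (SE, n = 3, edgeR adjusted p = 2.4e-09), and between 36 h and P5 it differed by -0.07 ± 0.18 (edgeR adjusted p = 0.82). At P8 it was 2.77 ± 0.20 higher than at t0 (edgeR adjusted p = 2.2e-10). It was the one gene of the 8 called between t0 and 36 h that was called in all 12 alternatives. *RYBP* stood at 24.8, 24.5 and 22.5 TPM at t0 and 31.0, 33.4 and 28.1 at 36 h, then 21.9, 12.8 and 16.3 at P2 and 41.0, 55.5 and 56.1 at P10. *RYBP* was called over the time course (edgeR adjusted p = 1.0e-04) but in none of the pairwise steps. *YAF2* made up 13.3% ± 2.0 (SD, n = 3) of the pair's TPM at t0 and 38.1% ± 0.90 at 36 h.

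*PCGF5*, the RING-finger subunit of another variant PRC1, differed between differentiations early on. It read 10.6, 7.90 and 10.6 TPM at t0, and 14.8, 1.97 and 1.80 at P1, where r2 and r3 lay far below r1, the library that stood apart. At P3 it read 10.9, 26.3 and 27.1, and at P5 24.6, 23.8 and 26.8. *PCGF5* rose by 2.46 ± 0.45 on the log2 scale between 36 h and P5 (SE, n = 3, edgeR adjusted p = 2.2e-04) and by 2.22 ± 0.45 between t0 and P8 (edgeR adjusted p = 2.6e-04). Its TPM rose by less than its counts, from a mean of 9.69 at t0 to 25.1 at P8, and the cause was not tested. *PCGF3* rose by 0.68 ± 0.13 between t0 and P8 (edgeR adjusted p = 2.2e-04). *PCGF1* was called over the time course (edgeR adjusted p = 2.2e-04), with its lowest mean, 9.45 TPM, at t0 and its highest, 27.3, at P9. *PCGF6*, a subunit of the variant complex known in pluripotent cells, was not called (edgeR adjusted p = 0.032), and its group means lay between 18.6 and 25.8 TPM.

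All 3 ASXL genes, the scaffolds that activate the deubiquitinase BAP1 in PR-DUB, were called between t0 and P8, with *ASXL1* and *ASXL3* higher and *ASXL2* lower. *ASXL3* (chromosome 18, 33578233 to 33751192, + strand) showed the widest range of the 37 genes. It was at 0.42, 0.55 and 0.20 TPM at t0 and at 0.71, 0.26 and 0.50 at 36 h. It climbed to 10.9, 8.86 and 5.11 at P3 and to 37.2, 33.9 and 21.8 at P5. At P8 r1 reached 63.9 and r2 and r3 stood at 17.9 and 18.6, so the differentiations diverged. *ASXL3* rose by 6.27 ± 0.55 on the log2 scale between 36 h and P5 (SE, n = 3, edgeR adjusted p = 2.8e-08), and by 6.91 ± 0.57 between t0 and P8 (edgeR adjusted p = 1.8e-09). Both calls held in all alternatives run.

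*ASXL1* rose early and steadily. It read 16.7, 19.2 and 22.4 TPM at t0, 30.8, 36.6 and 35.3 at 36 h, and 62.5, 62.0 and 72.0 at P8. The rise was 0.96 ± 0.09 on the log2 scale by 36 h (SE, n = 3, edgeR adjusted p = 7.1e-08) and 1.90 ± 0.09 between t0 and P8 (edgeR adjusted p = 2.8e-13). *ASXL2* read 25.4, 20.4 and 20.8 TPM at t0, 25.5, 28.2 and 26.8 at 36 h, and 13.6, 15.8 and 15.3 at P5. It fell by 0.88 ± 0.14 between 36 h and P5 (edgeR adjusted p = 3.6e-05). As shares of the family's TPM, *ASXL2* went from 52.8% ± 6.2 (SD, n = 3) at t0 to 14.5% ± 2.0 at P5, and *ASXL3* from 0.94% ± 0.46 to 29.9% ± 6.4.

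Of the 6 core PRC2 genes, 3 were called between t0 and P8. *EZH2*, the main H3K27 methyltransferase of dividing cells, stood at 55.6, 46.3 and 56.1 TPM at t0, 66.9, 84.0 and 71.2 at 36 h, and 142, 135 and 132 at P5. *EZH2* rose by 0.73 ± 0.14 on the log2 scale between 36 h and P5 (SE, n = 3, edgeR adjusted p = 2.6e-04) and was 0.95 ± 0.14 higher at P8 than at t0 (edgeR adjusted p = 5.0e-06). The difference between t0 and 36 h, 0.50 ± 0.14, missed the threshold (edgeR adjusted p = 0.017). *EZH1*, its paralogue in resting cells, stayed between 7.52 and 17.0 TPM and was not called (edgeR adjusted p = 0.078). The 16 proliferation genes set beside these results summed to means of 3004 TPM at t0, 3006 at 36 h, 3466 at P5 and 2834 at P8. Their part in the *EZH2* result was not tested. *SUZ12* rose by 0.32 ± 0.10 between t0 and P8 (edgeR adjusted p = 0.0078), a call lost in 5 of 11 alternatives. *RBBP7*, a histone chaperone, fell by 0.50 ± 0.14 (edgeR adjusted p = 0.0042), while *EED* and *RBBP4* were not called.

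Both PRC2.2 accessory genes were lower at P8 than at t0. *JARID2* (chromosome 6, 15246296 to 15522040, + strand), which recruits PRC2.2, read 130.11, 130.46 and 117 TPM at t0 and 54.1, 38.7 and 35.7 at 36 h. It read 35.5, 19.9 and 16.5 at P2 and 77.8, 80.5 and 57.2 at P6. *JARID2* fell by 1.61 ± 0.32 on the log2 scale by 36 h (SE, n = 3, edgeR adjusted p = 0.0014) and by 1.53 ± 0.31 between t0 and P8 (edgeR adjusted p = 3.2e-04). Its partner *AEBP2* went from 51.6, 51.1 and 57.6 TPM at t0 to 38.8, 30.5 and 32.8 at P8 and fell by 0.83 ± 0.12 (edgeR adjusted p = 3.6e-06). Of the PRC2.1 subunits, *PHF19* rose from 14.3, 18.4 and 19.1 TPM at t0 to 34.4, 40.2 and 40.5 at P8, by 1.08 ± 0.21 (edgeR adjusted p = 1.4e-04), and *MTF2* fell by 0.62 ± 0.13 (edgeR adjusted p = 2.8e-04). *PHF1* was not called (edgeR adjusted p = 0.26). The calls of *JARID2* and *MTF2* between t0 and P8 were lost without r2 and without r3, and that of *PHF19* without r2.

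The pair of H3K27 demethylases moved in opposite directions. *KDM6A* (UTX) read 34.96, 39.0 and 35.6 TPM at t0, 22.1, 26.5 and 21.1 at 36 h, and 12.8, 13.2 and 10.9 at P5. It fell by 0.59 ± 0.14 on the log2 scale by 36 h (SE, n = 3, edgeR adjusted p = 0.0081), by 1.10 ± 0.15 from 36 h to P5 (edgeR adjusted p = 5.8e-06), and by 1.58 ± 0.15 between t0 and P8 (edgeR adjusted p = 1.2e-08). The 36 h call was lost in 7 of 12 alternatives, without the 36 h library of r1 among them. *KDM6B* (JMJD3) was uneven at t0, with 3.78, 14.7 and 6.07 TPM, and read 22.2, 28.3 and 41.3 at P8, a rise of 1.86 ± 0.32 (edgeR adjusted p = 5.5e-05). The log2 ratio of *KDM6A* to *KDM6B* TPM was 2.39 at t0 and -1.25 at P8, with no overlap.

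Among trithorax methyltransferases, *KMT2A* (MLL1), known as an activator of *HOX* genes, read 22.9, 14.5 and 16.2 TPM at t0 and 48.4, 29.96 and 29.1 at P8. It rose by 0.98 ± 0.26 on the log2 scale (SE, n = 3, edgeR adjusted p = 0.0037), with r1 the highest library at both time points, and the call was lost without r2 or r3 (adjusted p up to 0.043). *KMT2B* and *CTCF*, the insulator protein that bounds the *HOX* domains, were not called at any time (edgeR adjusted p = 0.013 and 0.36). *CTCF* means lay between 60.2 TPM at t0 and 80.1 at P5.

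**Figure D3:**
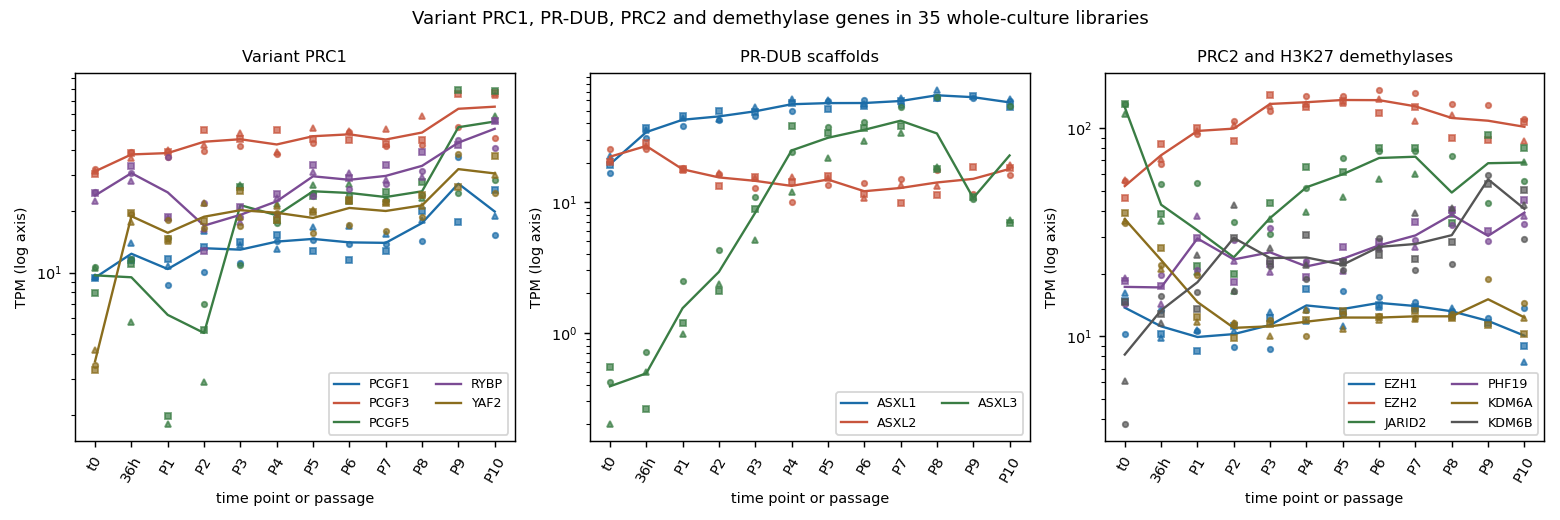
TPM on a log axis against time point for 14 genes of variant PRC1, PR-DUB, PRC2 and the demethylases, with circles for r1, squares for r2, triangles for r3 and lines through the means. *YAF2* stepped up at 36 h, ranged between 14.4 and 25.1 TPM from P1 to P8 and had its highest mean at P9, *ASXL3* rose through P7, *JARID2* had its lowest mean, 23.9 TPM, at P2, and *KDM6A* and *KDM6B* crossed at P1.

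The genes passed the midpoint of their log2 change from t0 to P8 at different times. *PHC1*, *YAF2* and *JARID2* did so at 36 h in each of the 3 differentiations. *CBX8* did so at P1 in each, when 24 *HOX* genes had reached 100 normalized counts. *ASXL3* did so at P3 in r1 and at P2 in r2 and r3, and *PCGF5* at P4, P3 and P3. *CBX7* did so at P1 in r1 and at 36 h in r2 and r3. For *KMT2A* the midpoint was passed at P5, P4 and P5.

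The falls of *PHC1*, *CBX7*, *JARID2* and *KDM6A* accompanied the fall of the 4 hESC markers given above, and their part in the result was not tested. In bulk samples fewer cells of a type and less RNA per cell cannot be told apart. The calls between t0 and 36 h also depended on how the spread was estimated. Without r2 4 of the 8 remained (3 higher and 1 lower) and without r3 3 (2 higher and 1 lower). Without the replicate block 5 remained, and with only t0 and 36 h in the fit 2 (*YAF2* and *JARID2*). Without the 36 h library of r1, 9 were called, 7 of them shared with the 8. For the step from 36 h to P5, 7 of the 14 remained without r2, 9 without r3, and 6 with only those groups in the fit. From t0 to P8, 16 of the 24 remained without r2 and 17 without r3. The share of all genes called over all time points also fell without r2 or r3, as given above. No share of all genes in these fits is given here for the single comparisons. These counts therefore do not set the members apart from other genes.

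Reads shared with other genes limit a few values. *PHC1P1*, a *PHC1* pseudogene, reached 64.0 TPM in 1 library and had a median of 6.09. The readthrough gene *COMMD3-BMI1* held 4.50% as many counts as *BMI1* over all libraries, and *SUZ12P1* had a median of 32.96 TPM. Exons of *PHC1*, *RBBP7* and *PHF1* overlap those of *M6PR*, *TXLNG* and *CUTA* on the opposite strand, with 46.9%, 29.3% and 284% of the members' counts, and whether the authors' counting used strand is not given in the sources used here.

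Another 62 genes of the same pathways, such as further PRC1 and PR-DUB partners, COMPASS subunits, remodelers and cohesin, were taken as a list, of which 61 passed the count filter and *EZHIP* did not. Between t0 and P8, 26 of the 61 were called (42.6%, 17 higher and 9 lower), against 37.1% of all genes. Those with a log2 fold change of at least 1 in size included *SMARCA2* (3.53), *FBRS* (2.26), *SCML1* (2.08), *NCOA6* (1.72), *STAG1* (1.47), *BCORL1* (1.38), *MBTD1* (-1.19) and *PSIP1* (-1.34). *FBRS* is a partner of the PCGF3 and PCGF5 complexes, and *STAG1* a cohesin subunit. Between t0 and 36 h 10 of the 61 were called (16.4%, 8 higher and 2 lower), against 5.68% of all genes, with *SMARCA2* (2.62), *EPOP* (1.95) and *SCML1* (1.59) past that size. Between 36 h and P5 11 were called (18%, 10 higher and 1 lower), below the 20.2% of all genes, with *NCOA6* (1.66), *AUTS2* (1.61), *FBRS* (1.23), *SCML1* (1.10) and *STAG1* (1.05) past it.

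Between P5 and P8 no member was called by edgeR, against 0.0092% of all genes (2 of 21750). DESeq2 also called 0 members, but its share of all genes is not given here, so that count does not set the members apart. The largest difference was that of *PHF19*, 0.65 ± 0.20 on the log2 scale (SE, n = 3, edgeR adjusted p = 0.15). For 35 of the 37 genes the 95% interval of the log2 difference lay within 1 in either direction, *PHF19* and *CBX7* being the exceptions.

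From P8 to the mean of P9 and P10, *BMI1* was the 1 member called, against 2.5% of all genes. *BMI1* read 24.1, 42.4 and 50.1 TPM at P8, 109 and 90.7 at P9, and 34.6, 83.1 and 72.9 at P10, where r1 lay within the P8 range. It rose by 1.21 ± 0.24 on the log2 scale (edgeR adjusted p = 0.0042), and the call was lost without the replicate block, without r1, r2 or r3, and with only these groups in the fit (adjusted p up to 0.24). *PCGF5* read 24.1, 28.0 and 23.2 at P8, 24.6 and 78.9 at P9, and 28.6, 78.2 and 58.8 at P10, high in r2 and r3 and level in r1 (1.24 ± 0.40, edgeR adjusted p = 0.050, and from 0.78 without r2 to 1.68 without r1). *ASXL3* read 63.9, 17.9 and 18.6 at P8, 10.6 and 10.9 at P9, and 53.9, 6.90 and 7.27 at P10 (-1.10 ± 0.38, edgeR adjusted p = 0.064).

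Without r1, 4 other members were called in place of *BMI1*, against 8.56% of all genes: *PCGF5* (1.68), *JARID2* (1.13), *ASXL2* (0.76) and *PCGF3* (0.57), all higher. Without the r1 libraries of P1 to P3, *BMI1* and *RYBP* (0.55) were called, against 4.65% of all genes. Without the P10 library of r1, 6 members were called, against 11.1% of all genes in that fit: *BMI1* (1.33), *PCGF1* (0.84), *YAF2* (0.66), *PCGF3* (0.56) and *ASXL2* (0.53) higher and *ASXL3* (-1.64) lower. DESeq2 called 5, all higher and all among these 6, against 8.63% of all genes, and at an adjusted p under 0.05 edgeR called 5, against 10.4% of all genes. The 6 neural crest markers summed to between 139 and 766 TPM at P8, between 1000 and 1060 at P9 and between 232 and 916 at P10, and the 5 pre-neural markers to between 197 and 776, between 32.6 and 37.1, and between 14.3 and 452. The 4 neuron markers summed to between 173 and 233 TPM at P8, between 158 and 462 at P9 and between 281 and 449 at P10, and the proliferation genes to means of 2834, 2101 and 2597. Their part in these results was not tested. Of the 61 related genes, *ASH1L*, a trithorax-group methyltransferase, was called (0.60, edgeR adjusted p = 0.0064).

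Between the P5 fractions, neither any member nor any of the 18885 genes tested was called by edgeR at an adjusted p under 0.01. At an adjusted p under 0.05, 2 members were called, against 7.89% of all genes, and DESeq2 called the same 2 at 0.01, against 9.22%. *BMI1* read 27.7, 29.98 and 33.6 TPM in P5 EPI and 51.2, 55.9 and 66.3 in P5 MES, and was higher in MES by 0.89 ± 0.18 on the log2 scale in 3 of 3 differentiations (edgeR adjusted p = 0.027). *ASXL2* read 13.0, 14.9 and 17.7 in EPI and 17.8, 17.3 and 19.4 in MES, a difference of 0.40 ± 0.08 (edgeR adjusted p = 0.029).

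Other differences at P5 did not pass. *ASXL3* read 35.8, 40.1 and 36.2 TPM in P5 EPI and 23.9, 24.0 and 10.1 in P5 MES (-0.96 ± 0.30, edgeR adjusted p = 0.087). *JARID2* read 76.2, 76.4 and 62.2 in EPI and 51.0, 47.1 and 30.6 in MES (-0.71 ± 0.30, edgeR adjusted p = 0.18). For *ASXL3* and *JARID2* the lowest EPI library lay above the highest MES library. *CBX8* read 8.16, 7.69 and 8.89 in EPI and 9.15, 10.4 and 12.0 in MES (0.36 ± 0.10, edgeR adjusted p = 0.071). Its highest EPI library lay below its lowest MES library. The share of all genes whose P5 fractions separate in this way is not given here. The separation therefore does not set these genes apart from other genes.

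At P8 no member was called between the fractions, nor any other gene (0 of 18885 by edgeR at an adjusted p under 0.01 or 0.05). DESeq2 called 0 members and 140 genes. *ASXL2* was again higher in MES in 3 of 3 differentiations, with 13.1, 11.6 and 12.1 TPM in EPI and 15.4, 17.8 and 19.4 in MES (0.32 ± 0.08, edgeR adjusted p = 0.28). So was *KMT2A*, with 38.75, 32.5 and 25.62 TPM in EPI and 42.22, 52.12 and 38.28 in MES. *KMT2B* read 27.56, 22.39 and 23.05 in EPI and 25.41, 25.89 and 32.55 in MES, lower in MES in r1. *BMI1* read 26.9, 42.7 and 66.5 in EPI and 36.96, 46.8 and 80.5 in MES, so the differentiations differed more than the fractions. The 95% interval of the log2 difference lay within 1 in either direction for 36 of the 37 genes, *CBX7* being the exception.

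The change of the fraction difference between P5 and P8 was tested directly, and no member was called (0 of 18885 genes by edgeR, 1 by DESeq2). The neural crest and pre-neural marker ranges of the fractions overlapped at P8 and not at P5. The 6 neural crest markers summed to between 76.8 and 259 TPM in P5 EPI and between 473 and 593 in P5 MES, but to between 107 and 778 in P8 EPI and between 322 and 1091 in P8 MES. The 5 pre-neural markers summed to between 492 and 780.3 TPM in P5 EPI and between 95.6 and 279.7 in P5 MES, and to between 210.1 and 727 in P8 EPI and between 72.9 and 500.3 in P8 MES. The 4 neuron markers summed to between 192 and 290.4 TPM in P5 EPI and between 76.4 and 163 in P5 MES, and the 16 proliferation genes to between 3608 and 3643 in P5 EPI and between 3255 and 3269 in P5 MES, also without overlap. The part of these lists in the fraction differences was not tested. Of the 5 pre-neural markers, *CDH1* was at or under 1.08 TPM in all 12 fraction libraries.

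**Figure D4:**
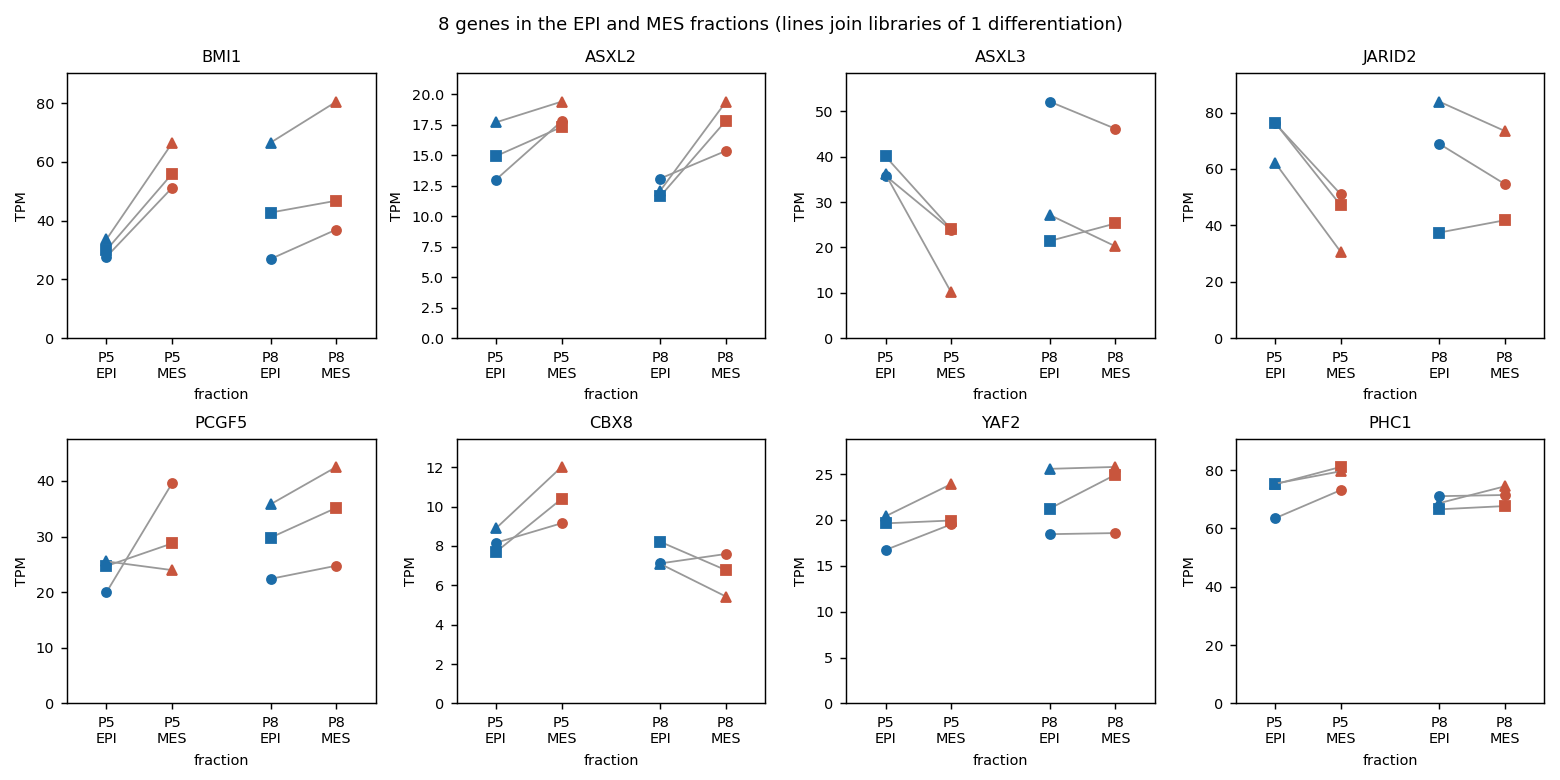
TPM of 8 genes in the EPI (blue) and MES (red) fractions of P5 and P8, with circles for r1, squares for r2 and triangles for r3 and lines joining libraries of 1 differentiation. Lines for *BMI1* and *ASXL2* run upward from EPI to MES in all 3 differentiations at both passages, those for *ASXL3* and *JARID2* run downward in all 3 at P5, and in r2 upward at P8.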

How the data were processed

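PolyA-selected RNA of 47 WA09 libraries had been sequenced as single-end reads of 75 bp. According to the submitters' processing notes the authors used cutadapt 1.16, STAR 2.5.2b and RSEM 1.3.0 on GRCh38, and the annotation release is not given in the sources used here. The authors deposited RSEM expected counts and TPM (divided by effective length and scaled to a fixed total) for 58051 Ensembl genes, and 9.33% of the expected counts were not whole. Symbols were paired for 57447 genes, and gene positions follow GENCODE 29 (GRCh38). The 37 genes and all lists were chosen with earlier results of these data known. The related, marker and proliferation lists serve as measured context.

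Expected counts were rounded and tested with edgeR 4.0.16 (glmQLFit, glmQLFTest, TMM, filterByExpr) in R 4.3.3, with limma 3.58.1. The 35 whole cultures shared a fit and the 12 fractions another, with differentiation as a block. The series' design takes time points and fractions from the same experiments (P9 from r1 and r2 only), so equal numbers were paired. Deviations from group means correlated at a mean of 0.14 between whole cultures of the same differentiation and -0.07 between others (fractions 0.42 and -0.21). Between t0 and 36 h libraries of equal number the mean was -0.00631 (-0.0757 to 0.0628), so the data showed no pairing there. Benjamini-Hochberg adjustment covered all genes tested. Normalized counts are counts over TMM size factors of all 47 libraries. Intervals of 95% use the residual degrees of freedom (21 and 6). SDs and shares are over libraries of a group, and paralogue ratios are log2 TPM ratios within a library, without a test. No pair of replicates agreed within sampling noise. Members called with an absolute log2 fold change of at least 1 were named with their statistics, and the others by counts, ranges and examples from their complex. Promoter windows came from RefSeq (GRCh38.p14). The test was checked on simulated data. DESeq2 1.42.0, other filters and left-out libraries were alternatives. Leaving out the 36 h library of r1, the r1 libraries of P1 to P3 or the 3 shallowest libraries was chosen after seeing the data. Reads carried no molecular identifiers, so depth limits cover counting error only. A related gene that passed the test is not reported here.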

Additional observations from a re-analysis of the deposited data

How the results depend on the processing

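Of the values of named genes under the alternatives, 674 kept direction and side of the threshold, 76 lost the call, 16 gained one and 2 changed sign. Without the replicate block, the members called fell from 8 to 5 between t0 and 36 h and from 1 to 0 between P8 and the late passages, and the block moved no other count by over 1.5 times. Leaving out 1 differentiation or 1 library gave 3 to 9 calls between t0 and 36 h, 7 to 12 (of 14) between 36 h and P5, 0 to 6 for the late passages (2 without the r1 libraries of P1 to P3), and 15 to 27 (of 27) over all time points, with the fewest without r2 or r3. With only the compared groups in the fit, 2 were called between t0 and 36 h, 7 between 36 h and P5 and 0 for the late passages. The share of all genes called over all time points also fell without r2 or r3. No share of all genes in these fits is given here for t0 to 36 h or 36 h to P5. Those counts therefore do not set the members apart from other genes. DESeq2 called 5 for the late passages and 2 between the P5 fractions, the same numbers as edgeR at an adjusted p under 0.05 (5 and 2). The study's thresholds left 7 between 36 h and P5 and 14 between t0 and P8, since they add limits on size and level. For the late passages *JARID2* ranged from -0.10 without r2 to 1.13 without r1, and between the P8 fractions *CBX7* ranged from -0.00452 without r3 to 0.79 without r2. With normalized counts in place of TPM, log2 ratio differences moved for *CBX2* to *CBX7* between P5 fractions (0.61), *PHF19* to *PHF1* (1.23), *RYBP* to *YAF2* (-2.46) and *PCGF3* to *PCGF5* (-1.56) between t0 and P8, and *RYBP* to *YAF2* between P8 fractions (0.20). Leaving out 1 differentiation gave -1.31 to 0.15 for *CBX2* to *CBX7* and -0.0703 to 0.25 for *KMT2A* to *KMT2B* between P5 fractions. The cause of these shifts was not tested. Depth limits *CBX7*, whose group means from P3 to P10 lay between 0.16 and 0.32 TPM.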
